A study of Mus musculus with 6 samples.

Results

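The prolactin family was followed across 6 arrays of mouse embryonic fibroblasts undergoing reprogramming, through 7 genes: the pituitary hormone gene Prl, the placental hormone genes Prl3d1, Prl3d2 and Prl3b1, the proliferin gene Prl2c2, the decidual gene Prl8a2 and the receptor gene Prlr. These genes were chosen by their signal values: Prl, Prl3d1 and Prl3d2 were higher in Gadd45a than in the other groups within each replicate number, and their values in the comparisons with Gadd45a are therefore a description and carry no test. Of the 7 genes, 6 are among the 27617 gene names on the array, with 8 probes that carry the gene's own name. No probe is named Prl2c2, and 4 probes named Prl2c3 or Prl2c5 stand for it because the array design lists a Prl2c2 transcript among their targets. In all, 12 of the 41174 probes were followed.

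All cultures were fibroblasts infected with the factors abbreviated SKO in the labels. They were given in addition Gadd45a, its mutant G39A (a negative mutant, per the labels) or the control Flag, and were profiled at day 8 after 6 days in high-glucose medium with serum and LIF, a cytokine used to keep mouse stem cells undifferentiated. Each of the 3 groups has 2 arrays, numbered replicate 1 and replicate 2. Gadd45a encodes a small protein that cells induce under stress, and the series asks which genes it regulates in reprogramming. The labels do not say whether the replicates were separate cultures, and the p-values given here can speak only of how far these 6 arrays spread. The RNA is that of a whole culture, so more cells of one type and more RNA per cell cannot be told apart.

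Prolactin and its relatives are small secreted proteins that arose by repeated duplication of one ancestral gene, and in the mouse they sit in a cluster on chromosome 13. Prolactin itself comes from lactotrophs of the pituitary, where the factor Pit-1 (Pou1f1) drives it, and it acts through the cytokine receptor Prlr, the kinase Jak2 and the transcription factor Stat5. The placental lactogens of the Prl3d and Prl3b groups come mainly from trophoblast giant cells and bind the same receptor, whereas the proliferins of the Prl2c group were first found as transcripts of growth-stimulated fibroblasts and are also made by giant cells. Fibroblasts are not a usual source of prolactin or placental lactogens.

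By counts of probes called, given below with each comparison, the arrays differed more by replicate number than by group. Gadd45a replicate 1 and Flag replicate 1 share a slide, all replicate 2 arrays share another, and G39A replicate 1 lies on a slide of its own. The differences between Gadd45a and Flag are therefore within a slide, while every difference that uses G39A replicate 1 spans 2 slides. On each array 57.0% to 62.9% of spots were well above background, and no spot was saturated. Pou5f1, which encodes the factor usually abbreviated O in SKO, was not well above background on the 3 replicate 2 arrays, at 3.57 to 4.40. It gave a signal of 5153 in Gadd45a, 6363 in G39A and 3851 in Flag of replicate 1, so it was at least 228-fold higher in replicate 1. The Gadd45a probe gave 560 in Gadd45a, 1395 in G39A and 1017 in Flag of replicate 1, and 1870 in Gadd45a, 2147 in G39A and 2309 in Flag of replicate 2. Thus it was not brighter on the arrays labelled Gadd45a. Whether this probe reads the introduced copy is not given in the sources used here, so it checks no label. Every direction given for Gadd45a below rests on the labels. Of 12 fibroblast markers, 11 were above background on all 6 arrays. Their level differed by replicate number: 9 of the 12 were called higher in replicate 2 and 0 lower. Of all tested probes 32.6% were called higher. Dcn, among the 9, was not above background on Gadd45a replicate 1 and entered through replicate 2 alone.

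The family's genes are so alike that the probes matter. Shown first are the probes of the proliferins and of Prl3d2, since these have to tell paralogues apart. Capitals in the first pair mark the bases at which these 2 probes differ when aligned; the others carry none. All are written 5′ to 3′.
Prl2c3 probe A_52_P84814: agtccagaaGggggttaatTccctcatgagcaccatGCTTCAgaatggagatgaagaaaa
Prl2c5 probe A_52_P619248: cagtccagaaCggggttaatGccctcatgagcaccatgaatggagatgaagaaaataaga
Prl2c3 probe A_51_P312779: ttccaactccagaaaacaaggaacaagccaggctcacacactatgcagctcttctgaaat
Prl2c5 probe A_52_P511450: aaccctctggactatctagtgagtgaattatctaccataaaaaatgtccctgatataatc
Prl3d2 probe A_52_P405945: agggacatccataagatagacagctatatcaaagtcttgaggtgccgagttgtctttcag

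In the file headers' mouse build mm9, the Prl2c3 probe A_52_P84814 maps to chr13:12883352-12884285 on the minus strand, and A_51_P312779 to chr13:12884423-12885595. Both intervals are longer than a 60-base probe, so these probes span an intron. The Prl2c5 probe A_52_P511450 maps without a break to chr13:13282901-13282960 on the plus strand, and A_52_P619248 spans an intron at chr13:13282998-13283933. The Prl3d2 probe maps to chr13:27219216-27219275, the Prl3d1 probe A_51_P322170 to chr13:27192011-27192070, and the Prl probe A_51_P155514 to chr13:27156985-27157044, all on the plus strand. Whether these probes lie in coding sequence or in a UTR is not given in the sources used here. The file design lists transcripts of Prl3d1, Prl3d2 and Prl3d3 as targets of the Prl3d2 probe, so its signal cannot be assigned to Prl3d2 alone. The Prl probe lists Prl only, and the Prl3d1 probe is tied to Prl3d1 by name alone.

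A search of each probe against the other 41173 on the array found 1 pair with at least 16 shared bases in a row that involves a probe of the 7 genes. The Prl2c3 probe A_52_P84814 and the Prl2c5 probe A_52_P619248 share up to 18 bases in a row, and 52 of their 60 aligned bases are identical, with 2 substituted and 6 gapped. This search compares probes with each other only. Probes from different stretches of like transcripts share no run, and no probe was matched to transcripts of the paralogues. The search therefore cannot show which transcripts a probe binds, also for Prl and Prl3d1. The 4 proliferin probes that were above background on all 6 arrays moved nearly as one. Over the 6 arrays, which share slide and replicate number in part, Pearson's r with A_52_P84814 was 0.9994 for A_52_P619248, 0.9995 for A_51_P312779 and 0.9986 for A_52_P511450. These 4 probes therefore give 1 proliferin readout rather than 4 gene measurements. The Prl3d1 and Prl3d2 probes were also close (r 0.9940 over the 6 arrays), but the difference between their log2 signals varied over a range of 1.12 across arrays.

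The hormone gene Prl was higher in Gadd45a in both replicates. Its signal was 67.0 in Gadd45a, 24.4 in G39A and 33.9 in Flag of replicate 1. In replicate 2 it was 61.9 in Gadd45a, 22.2 in G39A and 31.6 in Flag. Both Gadd45a arrays lay above the other 4, and both G39A arrays lay lowest, where replicate 2 was not well above background. After each array was scaled to its 75th percentile, the ratio of Gadd45a to Flag was 1.91 in replicate 1 and 2.10 in replicate 2, with log2 differences of 0.94 and 1.07 (SD 0.09, n = 2 pairs). Against G39A the ratio was 3.05 in replicate 1 and 2.91 in replicate 2. The signal is dim: the lowest signal of any probe well above background was 17.1 to 35.1 on these arrays, and 35.1 on Gadd45a replicate 1. Under normexp background correction the log2 differences from Flag were 0.48 in replicate 1 and 0.49 in replicate 2, and those from G39A were 0.75 and 0.58, where 1.61 and 1.54 stood without it.

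Prl3d1, placental lactogen I, is the principal hormone of giant cells at mid-gestation. Its signal was 2624 in Gadd45a, 769 in G39A and 938 in Flag of replicate 1, and 258 in Gadd45a, 97.5 in G39A and 55.4 in Flag of replicate 2. Within each replicate number the Gadd45a array was the brightest, but the replicate 1 arrays of all 3 groups lay above every replicate 2 array, so the groups overlap when replicates are pooled. The ratio of Gadd45a to Flag was 2.71 in replicate 1 and 4.99 in replicate 2. The log2 difference was 1.88 ± 0.62 (SD, n = 2 pairs). Against G39A the ratio was 3.79 in replicate 1 and 2.76 in replicate 2. Under normexp the log2 difference from Flag in replicate 2 was 1.52, where 2.32 stood without it.

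Prl3d2, a neighbouring copy of the same lactogen, had a signal of 1941 in Gadd45a, 732 in G39A and 658 in Flag of replicate 1. The same probe gave 187 in Gadd45a, 59.9 in G39A and 24.2 in Flag of replicate 2. The array order was that of Prl3d1, apart from G39A and Flag of replicate 1, which were close together. The ratio of Gadd45a to Flag was 2.86 in replicate 1 and 8.26 in replicate 2, a log2 difference of 2.28 ± 1.08 (SD, n = 2 pairs). Against G39A it was 2.95 in replicate 1 and 3.26 in replicate 2. Under normexp the log2 difference from Flag in replicate 2 was 1.60, where 3.05 stood without it, and that from G39A was 1.09, where 1.71 stood.

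**Figure D1:**
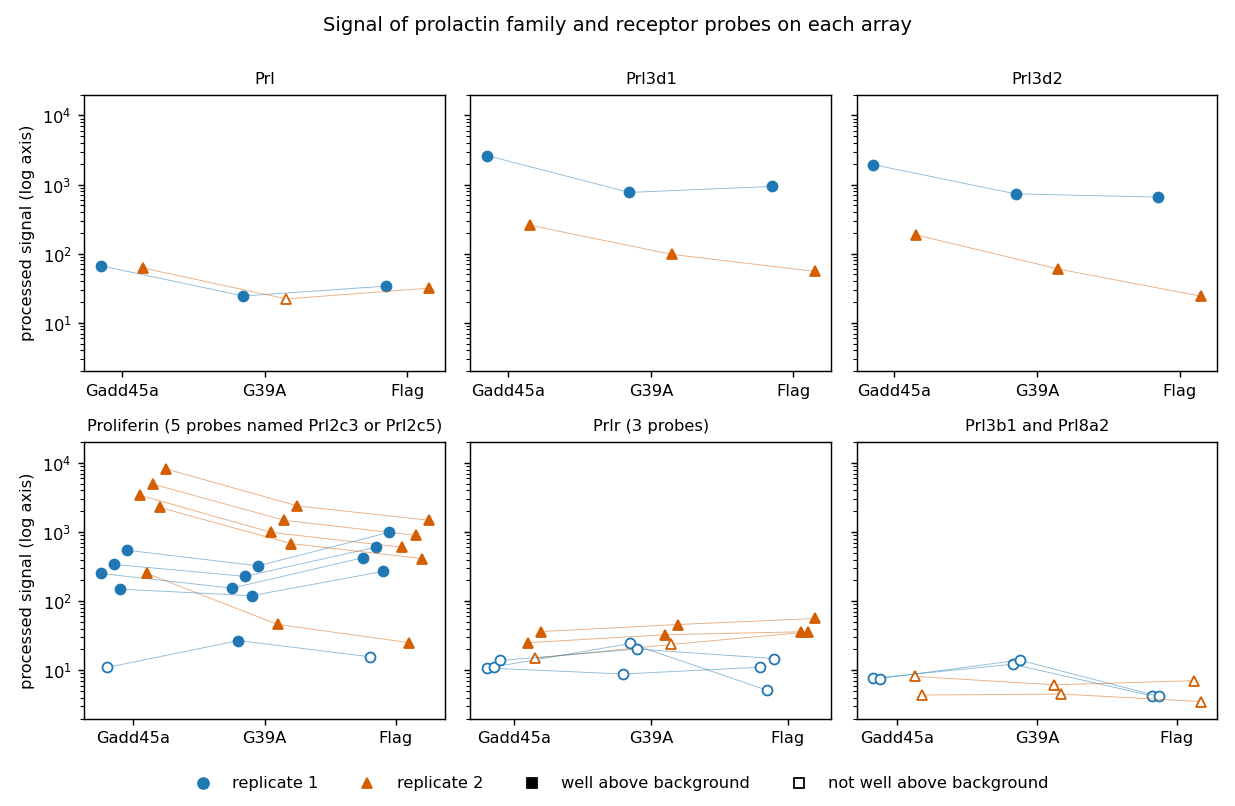
Processed signal (log axis) of each probe on the Gadd45a, G39A and Flag arrays, with circles for replicate 1 and triangles for replicate 2, filled where the probe was well above background; the proliferin panel also holds A_52_P619248, whose listed targets leave out Prl2c2. Prl sits between 22.2 and 67.0 on all 6 arrays, the Prl3d panels are parted by replicate number, and Prl3b1 and Prl8a2 are open on every array.

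The proliferin probes took opposite directions in the 2 replicates. The Prl2c3 probe A_52_P84814 gave 340 in Gadd45a, 228 in G39A and 606 in Flag of replicate 1, and 4913 in Gadd45a, 1475 in G39A and 893 in Flag of replicate 2. In replicate 1 the Flag array was brightest, and in replicate 2 the Gadd45a array was. The 4 probes above background on all arrays repeated this, with log2 differences between Gadd45a and Flag of -0.91 to -0.80 in replicate 1 and 2.55 to 2.60 in replicate 2. As ratios, Gadd45a stood at 0.533 to 0.573 of Flag in replicate 1 and at 5.87 to 6.06 times Flag in replicate 2. Against G39A, both replicates ran the same way, with 1.38 to 1.87 times in replicate 1 and 3.48 to 3.60 times in replicate 2.

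The remaining probe, A_51_P312780, lists Prl2c2 and Prl2c3. It was dim in replicate 1, at 10.99 in Gadd45a, 26.9 in G39A and 15.7 in Flag, and only the G39A array was well above background. In replicate 2 it gave 252 in Gadd45a, 45.9 in G39A and 25.1 in Flag, all well above background. This probe tracked the other proliferin probes less closely, with r 0.8794 to A_52_P84814 over the 6 arrays.

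Placed against all 24149 probes tested between groups, 24.9% were higher in Gadd45a than in Flag in both replicates, and 15.8% were higher than both Flag and G39A in both. Since the genes were chosen for this pattern, nothing is read from the 3 of 7 tested probes that show it, those of Prl, Prl3d1 and Prl3d2. For the same reason the larger differences are given as counts alone: 2 of the 7 probes were at least 1 (log2) above Flag in both replicates, as were 0.0952% of all tested probes, and 3 were at least 1 above G39A in both, as were 0.244%. Prl is 1 of these 3, its G39A replicate 2 signal was not well above background, and it falls under 1 with normexp. In replicate 2 alone, 6 of the 7 were at least 2 above Flag, as were 0.422%. Only 7 of the 12 probes entered these tests, since the filter asks that a probe be well above background on both arrays of a group. The opposed pattern of the proliferins, lower in replicate 1 and higher in replicate 2, was shown by the other 4 of the 7 probes and by 23.2% of all tested probes. A log2 difference under -0.5 in replicate 1 together with at least 2 in replicate 2 was found for the 4 proliferin probes among the 7 and for 0.0456% of tested probes (11 of 24149). All 5 proliferin probes on the array are among these 11. Those above background on all arrays give 1 readout, and the comparison carries no test, so nothing is read from these counts. For A_51_P312780 neither replicate 1 signal was well above background, so its -0.56 there is no measured difference, and it was 0.0013 under normexp. By position from the highest of the 24149 differences between Gadd45a and Flag, Prl3d2 was at position 66 in replicate 1 and 26 in replicate 2, Prl3d1 at 78 and 82, and Prl at 170 and 355. None of the 3 was among the first 10 in either replicate.

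**Figure D2:**
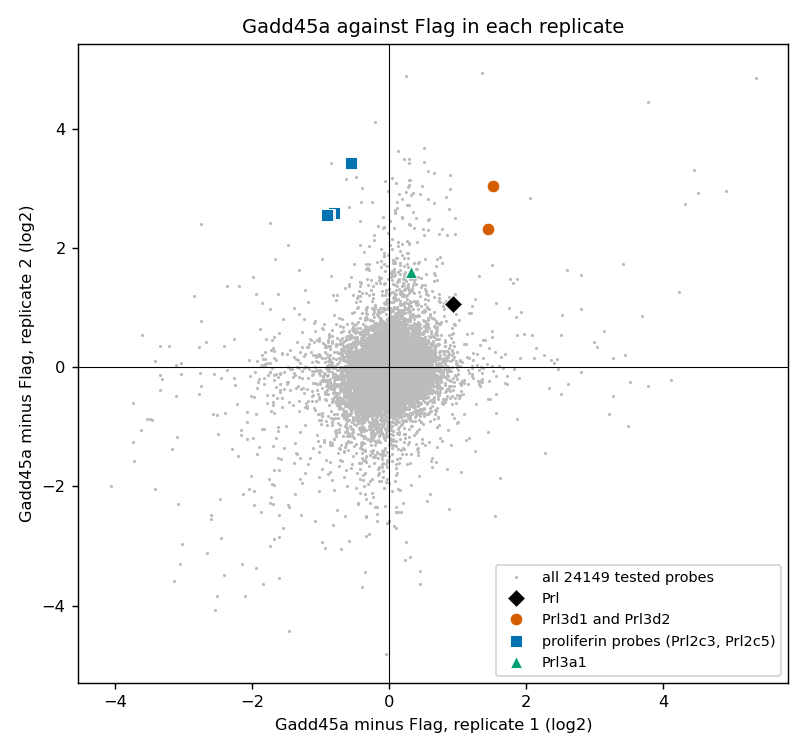
Log2 difference between Gadd45a and Flag in replicate 1 (x axis) against replicate 2 (y axis), with each grey point one of the 24149 probes tested between groups. Prl, Prl3d1 and Prl3d2 lie up and to the right of the origin, the proliferin probes up and to the left, and Prl3a1 nearer the y axis at 0.31 and 1.60.

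The mutant G39A was set against Flag as the one difference between groups that the choice of genes did not use, though both its groups served as the arrays that Gadd45a was compared with. By limma with Benjamini-Hochberg adjustment over all 24149 probes, 0 of 7 tested probes of the 7 genes passed (0% of all tested probes passed; 126 of them had an unadjusted p below 0.05). With the replicate block 0 passed as well, and 721 of all tested probes had an unadjusted p below 0.05. Prl was lower in G39A in both replicates, by a log2 difference of -0.67 in replicate 1 and -0.48 in replicate 2, and of -0.26 and -0.088 under normexp. Its mean difference was -0.57 (SE 0.17, limma adjusted p = 0.999994; with the replicate block SE 0.105, adjusted p = 0.991). Prl was the 1 of the 7 probes lower in both replicates, a pattern of 27.9% of all tested probes, and A_51_P312780 the 1 that was higher in both, a pattern of 20.1%. A_51_P312780 entered the test through its G39A arrays alone, and its Flag replicate 1 signal was not well above background. Nothing is therefore read from its direction.

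Prl3d1 was lower in G39A than in Flag in replicate 1 (log2 -0.49) and higher in replicate 2 (0.85). Its mean was 0.18 (SE 1.93, limma adjusted p = 0.999994, and with the replicate block SE 0.335, adjusted p = 0.991). Prl3d2 differed by -0.04 in replicate 1 and 1.34 in replicate 2. Its mean was 0.65 (SE 2.19, limma adjusted p = 0.999994, and with the replicate block SE 0.411, adjusted p = 0.991). The replicates thus differ in sign for both genes, and normexp turned the mean for Prl3d1 to -0.014. The 4 proliferin probes above background on all arrays were lower in G39A in replicate 1 (log2 -1.81 to -1.36) and higher in replicate 2 (0.72 to 0.76). No direction of G39A against Flag is therefore given for these genes. Such a split, under -0.5 in replicate 1 and over 0.5 in replicate 2, was seen for 3 of the 7 probes, all proliferins, and for 0.348% of all tested probes. These 3 probes belong to 1 proliferin readout, so they do not count as separate genes.

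**Figure D3:**
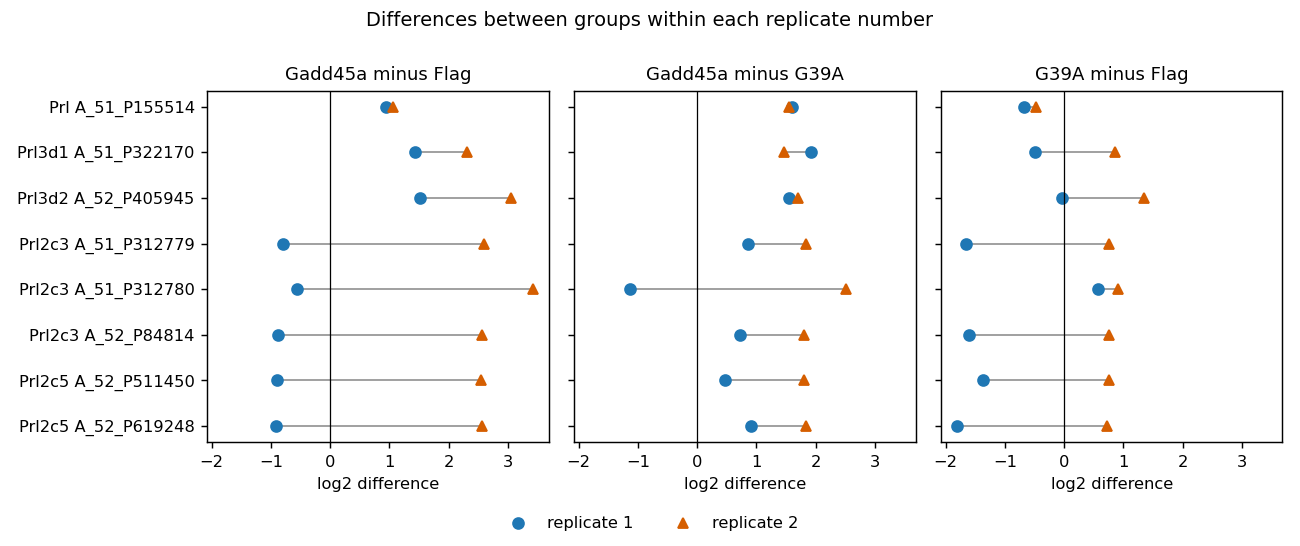
Log2 differences within each replicate number for the 8 tested probes of Prl, the Prl3d genes and the proliferins, with circles for replicate 1 and triangles for replicate 2. Gadd45a minus Flag is above 0 in both replicates for Prl, Prl3d1 and Prl3d2 and changes sign for the proliferin probes, while G39A minus Flag is below 0 in both replicates for Prl alone.

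The replicate numbers parted the family in opposite ways. The Prl3d1 and Prl3d2 probes were lower in replicate 2 and the proliferin probes were higher, while Prl was close between the numbers. A test of replicate 2 against replicate 1, with group as a term and adjustment over 24691 probes, called 32.6% of probes higher and 24.7% lower in replicate 2 (57.3% in all). Of the 9 probes of the 7 genes tested, 5 were higher and 2 lower. Of the 5, the 2 Prlr probes were above background in replicate 2 alone and so had to differ once they had entered. All 3 replicate 2 arrays lay above all 3 replicate 1 arrays, on scaled signals, for 6 of the 9 (39.5% of all tested probes) and below them for 2 (28.7%). The 6 include the 2 Prlr probes and A_51_P312780, which entered through replicate 2 alone. With so many probes called, these counts say little of the family by themselves. The median of all tested probes was 0.10 higher in replicate 2. The filter here asks that a probe be above background on all 3 arrays of a replicate number. The numbers nearly coincide with slides, so replicate and slide cannot be told apart.

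Prl3d1 differed by -3.29 on the log2 scale (SE 0.27, limma adjusted p = 0.000877), and Prl3d2 by -3.74 (SE 0.33, adjusted p = 0.00109). For Prl3d1 the replicate 1 signal was 8.90 times that of replicate 2 in Gadd45a, 6.48 times in G39A and 16.4 times in Flag. For Prl3d2 it was 9.08 times in Gadd45a, 10.1 times in G39A and 26.2 times in Flag. The Flag arrays thus differed most between the numbers for both genes. Prl differed by 0.06 (SE 0.09, limma adjusted p = 0.611).

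The proliferin probes moved the other way. A_52_P84814 was 2.54 higher in replicate 2 (log2, SE 0.68, limma adjusted p = 0.0312), and A_51_P312779 and A_52_P511450 were 2.49 and 2.52 higher (adjusted p = 0.0329 and 0.0309). The difference was 2.16 for A_51_P312780, which was not called. In replicate 1 this probe was well above background in G39A only. It thus entered the test through replicate 2 alone, and no p is given. Over the 4 probes bright on all arrays, replicate 2 stood at 15.4 to 17.4 times replicate 1 in Gadd45a, 6.89 to 8.95 times in G39A and 1.46 to 1.59 times in Flag. Here the Flag arrays differed least between the numbers. The calls do not stand without 1 library: with a Gadd45a array left out the adjusted p of these 4 probes ran from 0.0660 to 0.0855, and with a G39A array left out from 0.123 to 0.134. Without the filter on dim probes it ran from 0.0857 to 0.0915.

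Prlr, the receptor, had 3 probes on chromosome 15 and was not well above background on any replicate 1 array. A_52_P602987 gave 36.3 in Gadd45a, 45.9 in G39A and 56.1 in Flag of replicate 2, against 13.9 in Gadd45a, 20.3 in G39A and 14.8 in Flag of replicate 1. A_51_P264673 gave 25.0 in Gadd45a, 32.7 in G39A and 36.05 in Flag of replicate 2, against 10.8 in Gadd45a, 8.84 in G39A and 11.1 in Flag of replicate 1. Gadd45a was the lowest of the 3 groups in replicate 2 for both. As bounds, the probes were at least 2.10-fold and at least 1.43-fold higher in replicate 2. Both probes entered the test through their replicate 2 signals alone, so no p is given. The third probe, A_52_P458279, was above background in Flag replicate 2 only, at 35.8.

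**Figure D4:**
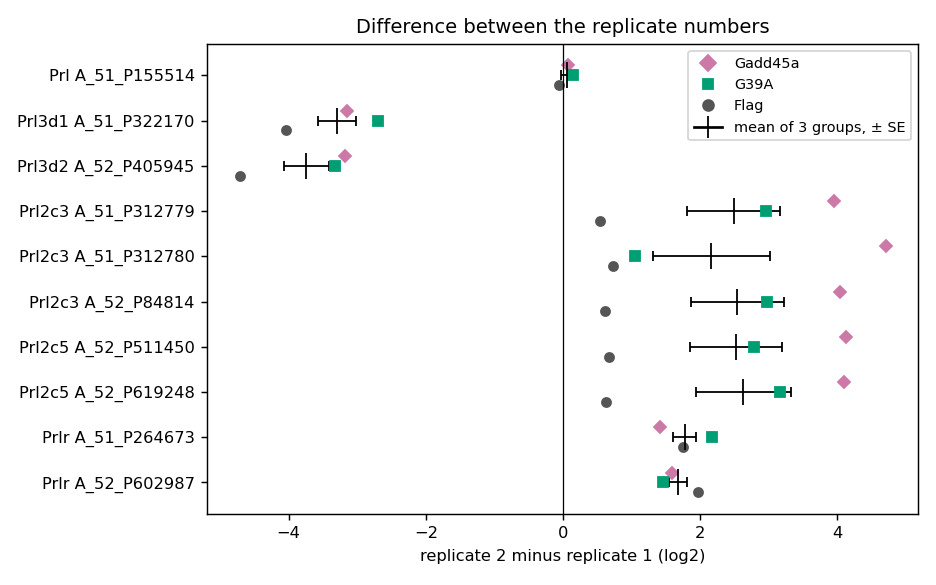
Replicate 2 minus replicate 1 (log2) in each group, with the mean of the 3 groups and its standard error in black, for probes tested between replicate numbers. Prl3d1 and Prl3d2 lie between -4.71 and -2.70, Prl near 0, and the proliferin and Prlr probes to the right of 0 in every group.

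Prl3b1, placental lactogen II, and Prl8a2, decidual prolactin-related protein, each had 1 probe and were not well above background on any array. Of the wider family, 19 further probes of 17 gene names were on the array, and 14 of them were never above background. The others were Prl2c5 (A_52_P619248), Prl3a1, Prl4a1, Prl8a8 and Prl8a9. Prl3a1, a placental lactogen-like gene, gave 42.7 in Gadd45a, 17.4 in G39A and 33.3 in Flag of replicate 1, and 118 in Gadd45a, 46.8 in G39A and 41.8 in Flag of replicate 2. It was higher in Gadd45a than in both other groups of each number, the pattern by which the genes were chosen, with log2 differences from Flag of 0.31 and 1.60. Prl8a9 was above background on replicate 2 arrays only, at 333 in Gadd45a, 72.1 in G39A and 61.9 in Flag, and at least 5.11-fold higher there than in replicate 1, having entered the test through replicate 2 alone. Prl4a1 was above background in G39A replicate 1 alone, at 145. Prl8a8 was above it in G39A replicate 1 and Gadd45a replicate 2, at 53.0 and 48.4.

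Dim probes carry their own difference between arrays. The 16 probes of the family that were never above background differed between Gadd45a and Flag by a median log2 of 0.80 in replicate 1 and 0.35 in replicate 2, where the median of all tested probes was -0.02 and -0.01. The Prl difference was 0.94 in replicate 1 and 1.07 in replicate 2, close to the dim probes' median in replicate 1 and above it in replicate 2. In replicate 1 its Flag and G39A signals were below the 35.1 at which Gadd45a replicate 1 begins to measure. The part of low signal in the Prl difference was not tested.

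Other genes of the pathway were read from lists by role. Between groups, 0 list genes passed by limma, with or without the replicate block, and for Gadd45a against Flag 1 milk protein gene and 1 trophoblast factor had an unadjusted p below 0.05. For Gadd45a against Flag, the median log2 difference was -0.49 for 3 of the growth hormone axis, -0.10 for 18 of 20 genes of prolactin receptor signalling, 1.27 for the 1 milk protein gene tested, 0.04 for 8 pituitary genes and 0.01 for 8 trophoblast factors, beside -0.01 for all tested probes. The milk protein gene, Csn3, entered the test through its Gadd45a arrays alone. In replicate 2 it gave 48.3 in Gadd45a, and 20.4 in G39A and 15.3 in Flag, neither well above background. Nothing is therefore read from its difference or its p. Pcsk1, a protease that processes prohormones, gave 170 in Gadd45a, 90.8 in G39A and 84.3 in Flag of replicate 1, and 142 in Gadd45a, 27.7 in G39A and 26.6 in Flag of replicate 2. Its log2 difference between Gadd45a and Flag was 1.74 (SE 0.73, limma adjusted p = 0.999975). Fosl1, a partner in AP-1 needed for the placenta, differed by 0.60 (SE 0.17, limma adjusted p = 0.999975), and Socs2, an inhibitor of the growth hormone and prolactin receptors, by -0.65 (SE 0.46, limma adjusted p = 0.999975). Igf1 differed by -0.49 (SE 1.01), but its replicates had opposite signs, with 0.12 in replicate 1 and -1.10 in replicate 2. Lhb and Id2 differed by 0.47 (SE 0.47) and -0.45 (SE 0.96). The SEs of these list genes come from the model with no replicate term, so they also hold the spread between replicate numbers. The 3 other prolactin family genes tested had a median of 0.84, but Prl2c3 and Prl2c5 among them are the proliferin probes whose replicates ran in opposite directions.

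Between the replicate numbers, 7 of 9 trophoblast factors tested fell in replicate 2 and 0 rose, beside 24.7% lower and 32.6% higher of all tested probes. A list gene counts if any of its probes was called, whereas these shares are of single probes, so the measures are unlike. Tead4, a factor of the early trophoblast lineage, fell by 3.55 on the log2 scale (limma adjusted p = 6.2e-05), and Tfap2c, which acts in trophoblast stem cells, was above background in replicate 1 alone and at least 4.27-fold higher there. Tfap2c, counted among the 7, thus had to differ once it had entered, and the count is a description. Id1 fell by 2.12 and Id2 by 1.63. In receptor signalling 8 of 18 genes rose and 5 fell, counted in the same way. Those that rose included Socs1 (1.63), an inhibitor of Jak kinases, and Tnfsf11 (1.41), a mammary target of prolactin. Stat3 rose by 0.88. Of the milk protein genes, Csn1s1 was at least 396-fold higher and Btn1a1 at least 3.21-fold higher in replicate 1. Of 9 pituitary genes tested, 3 rose and 3 fell. Pitx1, a homeobox factor of the pituitary and of the hindlimb, rose by 1.11, and the hormone gene Trh was at least 207-fold higher in replicate 1. Trh is among those that fell, and it entered through its replicate 1 signals alone. In the growth hormone axis Igf1 rose by 1.63, and the receptor gene Ghr and Socs2 fell by 0.65 and 0.67. Among the other prolactin family genes, Prl3a1 was 1.25 higher in replicate 2. Its G39A replicate 1 signal was not well above background. It thus entered the test through replicate 2 alone, and no p is given.

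Defining markers of lactotrophs and giant cells were mostly not above background. Of 14 spongiotrophoblast and syncytiotrophoblast markers on the array, 9 were never above it. All 8 of 8 markers of the decidua, the usual source of Prl8a2, were above it on all 6 arrays, but Prl8a2 itself was not on any. Since 11 of 12 fibroblast markers were on throughout too, whether this list tells decidua from fibroblasts was not tested. Of 11 pituitary markers 6 were never above background and 3 were above it on every array, and Pou1f1, Lhx3, Gh, Tshb and Chga were among the 6. Of the giant cell markers, of which 7 are on the array, 0 were above background in Gadd45a, 1 in G39A and 0 in Flag of replicate 1. In replicate 2 it was 1 in Gadd45a, 0 in G39A and 0 in Flag, and Hand1, Ctsq, Ctsj, Prl7a1 and Prl2a1 were not above it on any array. Their summed level, in percent of each array's 75th percentile, was 6.51 in Gadd45a, 20.9 in G39A and 4.33 in Flag of replicate 1, and 14.2 in Gadd45a, 6.32 in G39A and 4.91 in Flag of replicate 2. Single probes carry the 2 highest sums: Prl4a1, at a signal of 145 in G39A replicate 1, and Serpinb9g, at 77.4 in Gadd45a replicate 2. The epithelial markers summed to 373 in Gadd45a, 276 in G39A and 215 in Flag of replicate 2, and to 692 in Gadd45a, 641 in G39A and 628 in Flag of replicate 1. On each replicate 2 array only 3 of these 8 markers were above background. A single probe carries most of the gap there: Krt18, at 1735 in Gadd45a, 898 in G39A and 716 in Flag. The part of these markers in the lactogen and proliferin differences was not tested.

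Promoters are printed for Prl and the 2 lactogens, since the Prl3d1 and Prl3d2 probes moved together. The Prl3d2 probe also lists Prl3d1 and Prl3d3 as targets, so whether 2 genes moved together cannot be told. The windows hold 250 bases before to 50 after each start, from RefSeq (build GRCm38.p6), all on the plus strand: Prl at chr13:27057320-27057619, Prl3d1 at chr13:27093939-27094238 and Prl3d2 at chr13:27121445-27121744. Capitals mark matches to the motifs described after them.
Prl promoter: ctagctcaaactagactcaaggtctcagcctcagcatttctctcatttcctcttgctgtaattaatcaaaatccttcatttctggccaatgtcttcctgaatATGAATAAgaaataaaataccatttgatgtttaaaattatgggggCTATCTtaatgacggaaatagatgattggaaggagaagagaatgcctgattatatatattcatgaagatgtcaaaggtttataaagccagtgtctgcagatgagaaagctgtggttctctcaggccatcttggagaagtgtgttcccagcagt
Prl3d1 promoter: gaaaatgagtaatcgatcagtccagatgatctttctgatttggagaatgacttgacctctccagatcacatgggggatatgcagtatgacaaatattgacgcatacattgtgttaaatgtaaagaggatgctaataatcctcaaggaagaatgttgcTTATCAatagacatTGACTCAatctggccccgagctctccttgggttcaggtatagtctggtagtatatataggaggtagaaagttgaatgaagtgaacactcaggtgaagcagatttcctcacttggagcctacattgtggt
Prl3d2 promoter: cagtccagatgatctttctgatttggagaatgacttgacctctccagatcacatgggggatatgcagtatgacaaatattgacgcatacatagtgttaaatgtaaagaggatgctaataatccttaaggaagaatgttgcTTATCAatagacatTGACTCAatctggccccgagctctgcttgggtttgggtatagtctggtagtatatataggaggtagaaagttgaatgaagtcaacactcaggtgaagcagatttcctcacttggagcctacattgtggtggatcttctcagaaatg

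The Prl3d1 and Prl3d2 windows are identical at 277 of 283 aligned bases, so these promoters hardly tell the 2 genes apart, whereas Prl and Prl3d1 share 55.9% of their aligned bases. The 4 motifs were searched on both strands. The AP-1 motif TGANTCA was in 7.81% of the 32851 promoter windows of the table, and TGACTCA stood 79 bases before the start in Prl3d1 and 96 in Prl3d2. The GATA motif, spelled AGATAA or AGATAG and also TGATAA or else TGATAG, was in 29.8% of windows, and was matched 93 bases before the start in Prl3d1, 110 in Prl3d2 and 103 in Prl. The Pit-1 motif ATGAATAA was in 1.14% of windows and matched 148 bases before the start in Prl, and the octamer ATGCAAAT, in 1.74% of windows, was in none of the 3. Of the 28 windows of 23 family genes, Prlr included, 10 held the AP-1 motif, 19 the GATA motif and 2 the Pit-1 motif. None of these motifs is thus particular to the 3 printed genes, and AP-1 was also matched in Prl2c3. A match is a description of letters, not of binding. Promoter windows were in the table for 5 of the 7 genes.

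The genes most like each hormone gene were sought by correlation over the 6 arrays of log2 signal after the mean of each replicate number was removed, among 1869 probes that varied by at least 1. The arrays share slides and replicate numbers, and the values are a description. Prl was most like Blnk (r 0.987), Prss3 (r 0.982) and Myoz2 (r 0.980). Prl3d1 was most like Eprn (r 0.985), Prex2 (r 0.983) and Gdf5 (r 0.976). Prl3d2 was most like Lgals7 (r 0.994), Tgtp1 (r 0.992) and Prex2 (r 0.990), where a probe named by a clone identifier only, ranked between the last 2, was passed over. Among relatives, Prl had r 0.871 with Prl3d1 and 0.768 with Prl3d2, and Prl3d1 had 0.974 with Prl3d2.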

How the data were processed

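RNA of 6 samples was hybridised to 1-colour Agilent arrays, and per the file headers the spot intensity was background-subtracted and detrended within each array, with a surrogate value for dim spots. Per the submitters' processing notes the software was Agilent Feature Extraction 10.7. The deposited 0 or 1 marks (well above background, outlier) are scores of other kinds. A second table deposited by the authors holds log2 values and served as an alternative only. Its columns have a median of 6.17 and follow their own array's scanner signal (r 0.9989 or more), so direction and log2 scale are known, while its normalization is not stated in the sources used here. The number of arrays limits the precision.

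Control and outlier spots were left out, spots of a probe averaged, and log2 signals scaled by subtracting the array's 75th percentile. limma 3.58 in R 4.3 (lmFit, eBayes) tested all 6 arrays with Benjamini-Hochberg adjustment over all tested probes and a threshold of 0.05. Between groups the model had no replicate term unless the replicate block is named, so its SE also holds the spread between replicate numbers. The filter left 24149 probes between groups and 24691 between replicate numbers. Printed ratios and log2 differences are of scaled signals. An "at least" ratio sets the bright arrays' mean against the dim arrays' own signal or, where higher, the lowest signal of a probe well above background. The code was tested on simulated data.

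Same-numbered arrays deviated together (r 0.900 to 0.905), so the numbers were taken to pair samples. RefSeq (GRCm38.p6) gave names for 27668 of 41174 probes and promoters. The members and lists were chosen with earlier results of these data known. Named list genes are those past the threshold (up to 4 a list), or else the 2 with the largest difference between Gadd45a and Flag that were above background throughout. A few list genes that this rule or a marker list would name are not reported here.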

Additional observations from a re-analysis of the deposited data

How the results depend on the processing

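With the replicate number as a block, 0 probes passed between groups, as without it, and the block changed no other call. The number of probes past the threshold between groups was 0 under all alternatives run except the slide as a random block, which gave 20 for Gadd45a against Flag (4 higher, 16 lower) and 3 for G39A against Flag. Leaving out 1 array in turn gave 0 between groups, and 10573 to 11267 between replicate numbers. The share of tested probes higher in Gadd45a than in both other groups in both replicates, 15.8%, was 17.0% under normexp, 16.9% under quantile normalization, 17.0% in the deposited value table, 26.1% without a filter on dim probes and 16.6% for probes above background on all 6 arrays. Of 192 recomputed within-replicate differences of these genes, 1 changed sign (A_51_P312780 between Gadd45a and Flag in replicate 1, 0.0013 under normexp). Normexp lowered the Prl difference between Gadd45a and Flag to 0.48 in replicate 1 and 0.49 in replicate 2.

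For G39A against Flag, the sign of the mean turned for some probes. Prl3d1 was -0.014 under normexp, and ran from -1.83 (without Flag replicate 2) to 2.20 when 1 array was left out, with -1.17 without G39A replicate 1. Prl3d2 ran from -1.71 to 3.01 over the same arrays, with -1.02 without G39A replicate 1. Without G39A replicate 1 the proliferin probes A_52_P84814, A_52_P511450, A_51_P312779 and A_52_P619248 were 1.06, 1.09, 1.03 and 1.04, the highest values with 1 array left out, and the lowest were -1.91, -1.70, -1.94 and -2.12. A_52_P511450 was 0.029 without Flag replicate 2. A_51_P312780 was -0.088 with slide as a fixed term, an alternative chosen after seeing the data. The models with 1 array left out have no replicate term, so they set unequal mixes of the replicate numbers against each other. Without G39A replicate 1 the remaining pair, of replicate 2, differs by 0.85 for Prl3d1 and 1.34 for Prl3d2. The cause of the other changes was not tested.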
